A study of Rattus norvegicus with 8 samples.

Results

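The genes described here encode 10 enzymes that break down serine, alanine, aspartate, glutamine, glutamate, proline and histidine in liver, or that link this breakdown to glyoxylate and folate metabolism: Sds, Gpt, Got1, Got2, Gls2, Glud1, Prodh, Agxt, Hal and Shmt1. Every probe set whose only gene symbol in the platform annotation was that of a member was taken, which gave 13 of 31042 tested probe sets and at least 1 for each of the 10 genes. Got2, Glud1 and Prodh had 2 probe sets each, and a gene was represented by its brighter one unless stated. The study used livers of male Sprague-Dawley rats (180 to 200 g) removed 8 h after injection. The vehicle group received saline by both routes, the dexamethasone group 1.5 mg/kg of this synthetic glucocorticoid into muscle, the AICAR group 0.7 g/kg of AICAR, a nucleoside that activates the energy sensor AMPK, into the abdominal cavity, and the combined group both agents at these doses; a group given 1 agent received saline by the other route. The series asked whether AMPK changes the metabolic actions of glucocorticoids. Each of the 4 groups held 2 Affymetrix arrays. The labels do not say that these came from separate animals, so the p-values measure only the spread between arrays, which may be technical.

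Glucocorticoids are known to direct the liver towards glucose production from amino acids. Transaminases move the amino group of alanine or aspartate onto 2-oxoglutarate to give glutamate, and the dehydratase, ammonia-lyase, glutaminase and glutamate dehydrogenase reactions set ammonia free for the urea cycle, while the carbon skeletons pass to pyruvate or to citric acid cycle intermediates. Several of these enzymes, among them serine dehydratase, the liver glutaminase and histidine ammonia-lyase, are typical of hepatocytes near the portal vein.

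The hepatocyte origin of the RNA was checked on 8 marker genes such as Alb, whose summed signal lay between 16.69 and 16.75 (log2) on all 8 arrays. Such a sum follows its brightest markers most. Here a marker rose or fell when it was called by the rule given with the members below. By that rule 18.4% of all probe sets were called for dexamethasone, 12.9% for AICAR and 26.9% for both against vehicle. Of the 8 hepatocyte markers 1 fell after dexamethasone, 1 fell after AICAR, and 1 rose and 2 fell after both. Of 8 genes known to respond to glucocorticoids, 7 rose and 1, Sgk1, fell after dexamethasone alone. Of these 8, 4 rose and 2 fell after AICAR alone, and 1 rose and 6 fell from dexamethasone to both agents (median -0.66). In the last comparison 20.1% of all probe sets were called. Other quantities moved with the groups. The actin control transcript, a measure of RNA quality, read higher at its 3′ than at its 5′ end by 2.23 (log2) in the vehicle group, by 2.04 in the dexamethasone group, by 1.82 with AICAR and by 1.80 with both agents. The summed signal of 10 macrophage markers was 12.30 and 12.33 on the vehicle arrays, 11.14 and 11.29 after dexamethasone, 12.46 and 12.44 after AICAR and 7.71 and 7.78 after both. All 10 fell after both agents, and 4 of them, but none in vehicle, then averaged under 3.84, which is the smallest first quartile found on any array. After dexamethasone alone 9 of these 10 fell too, and after AICAR alone 3 rose and 1 fell. Of 10 leukocyte markers 5 fell after dexamethasone, 3 after AICAR and 8 after both agents. Their summed signal averaged 8.73 in the vehicle group, 8.11 with dexamethasone, 8.54 with AICAR and 7.75 with both agents. Of 9 sinusoidal endothelial markers 6 fell after dexamethasone and 6 after both (summed signal 12.10 in vehicle, 11.60 with dexamethasone and 11.63 with both). Of 11 stellate and fibroblast markers 6 rose after AICAR, and 4 rose and 4 fell after both (summed signal 12.30 in vehicle, 12.54 with AICAR and 11.90 with both). The sum over 6 erythroid markers was higher after both agents (11.80) than in vehicle (10.55), and there Tfrc, the transferrin receptor, rose by 2.10, whereas 3 fell, among them Alas2 (-1.03). After dexamethasone 1 of these 6 rose and 3 fell, and after AICAR 1 fell. The part of RNA quality and of cell composition in the results below was not tested. In whole liver, fewer cells of a type and less RNA per cell cannot be told apart.

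Dexamethasone alone raised 7 of the 10 genes and lowered none, with a median difference of 0.64 on the log2 scale, against a median of 0.00 over all probe sets. A gene was called when its limma p-value, adjusted over all 31042 probe sets, was under 0.05. By this rule 18.4% of the 31042 passed, 8.67% higher and 9.77% lower. Taken by gene over 14217 genes, 8.37% were higher and 14.3% lower. All 10 genes lay above the median mean of the probe sets (5.25), where calls were more frequent. In a fit of only the 15521 probe sets above it, 6019 passed for dexamethasone, with 8 of the 10 genes. The counts there were 5072 for AICAR, 8042 for both against vehicle, 8625 against AICAR and 6790 against dexamethasone. AICAR alone gave 5 falls and 2 rises among the 10 (12.9% of all probe sets called, 5.45% higher and 7.47% lower). That count of 7 dropped to 3 without AICAR replicate 1 and to 4 without AICAR replicate 2 or either vehicle array, all of them falls. After both agents 4 genes were above vehicle and 3 below (26.9% called, 13.3% higher and 13.6% lower). Against AICAR alone, the combination gave 5 rises and 3 falls (30.8% called, 15.9% higher and 14.9% lower). Against dexamethasone alone it gave 6 falls and no rise (20.1% called, 10.2% higher and 9.91% lower), with a median of -0.58 over the 10 genes and 0.00 over all probe sets. The share of all called probe sets that were higher depended on scaling: it moved from 47.0% to 57.6% for dexamethasone and from 42.2% to 56.1% for AICAR when arrays were centred on their brighter probe sets. No called difference of a member changed its sign under any scaling tried. These comparisons share arrays, so they are not independent of each other.

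**Figure D1:**
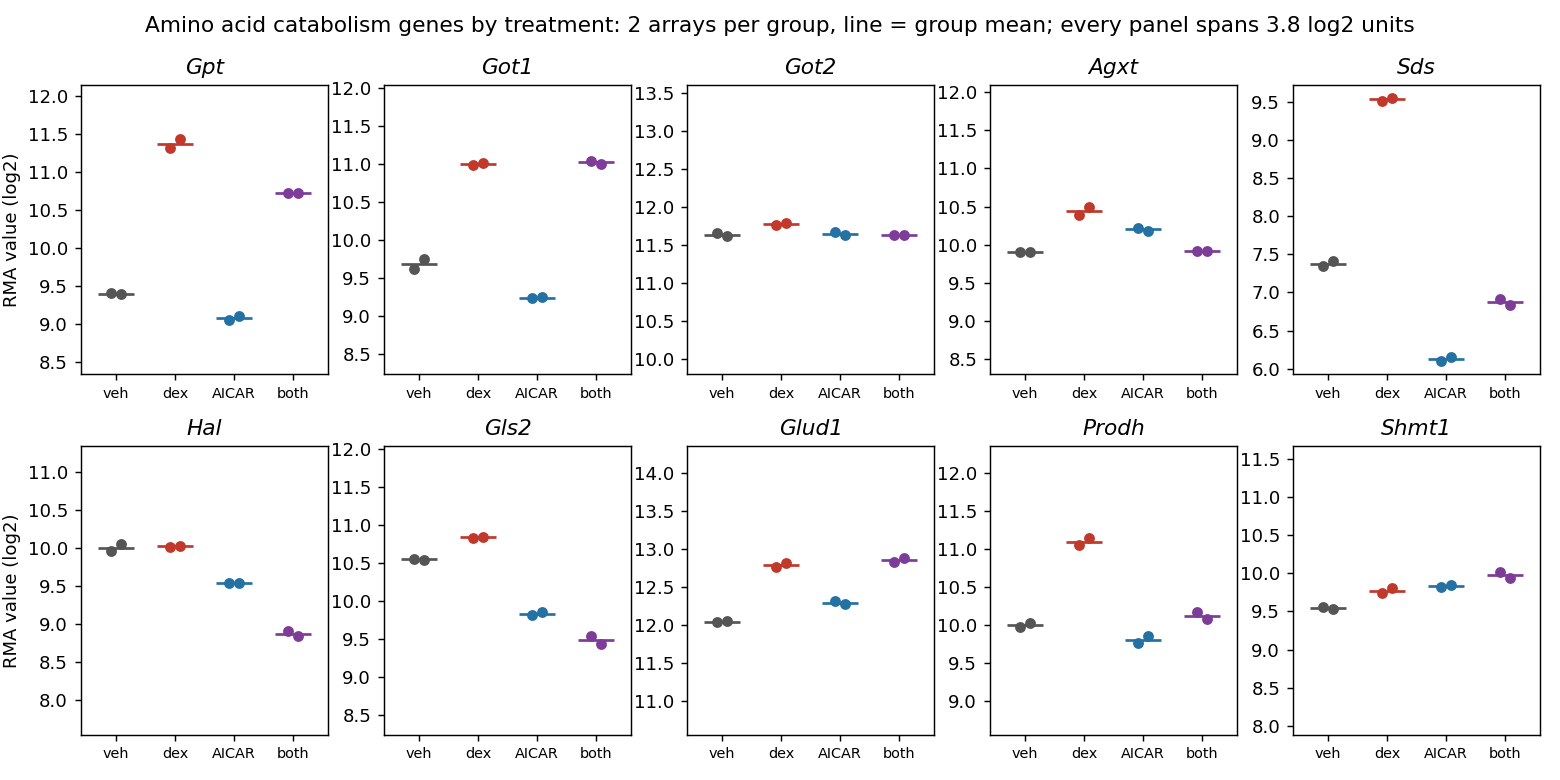
RMA values (log2, vertical axis) of the 10 genes on each array (points) of the 4 treatment groups, with group means as lines. Panels have the same span, so distances can be compared but heights between genes cannot. Sds ran from 6.10 on an AICAR array to 9.55 on a dexamethasone array, whereas all 8 arrays of Got2 lay between 11.62 and 11.79.

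The transaminases came first. Gpt encodes the cytosolic alanine aminotransferase, which turns alanine into pyruvate. It read 9.41 and 9.39 in vehicle, 11.31 and 11.43 after dexamethasone, 9.06 and 9.11 after AICAR and 10.73 and 10.72 after both. The 4 groups did not overlap: dexamethasone was highest, the combination next, and AICAR lowest. Dexamethasone raised Gpt 3.91-fold (1.97 ± 0.07 on the log2 scale, ± standard error, n = 2 arrays per group; adjusted p = 8.78e-07), and the combination kept it 2.51-fold above vehicle (1.33 ± 0.07, adjusted p = 4.15e-06). The fall after AICAR alone was small (-0.32 ± 0.07, adjusted p = 0.0259), and its call was lost when any single array of those 4 was left out and when only those 4 were fitted (adjusted p from 0.0579 to 0.136; from 6.01e-05 to 0.136 over all alternatives). The combination was 1.56-fold below dexamethasone alone (-0.64 ± 0.07, adjusted p = 4.61e-04).

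Got1 encodes the cytosolic aspartate aminotransferase, a part of the malate-aspartate shuttle. Its values were 9.62 and 9.75 in vehicle, 10.99 and 11.02 after dexamethasone, 9.24 and 9.25 after AICAR and 11.04 and 11.00 after both. The dexamethasone and combined arrays overlapped and lay above all others, and the AICAR arrays lay lowest. The rise was 2.50-fold with dexamethasone (1.32 ± 0.07, adjusted p = 7.92e-06) and 2.53-fold with both (1.34 ± 0.07, adjusted p = 4.06e-06). The combination differed from dexamethasone alone by 0.02 (95% interval -0.15 to 0.19). AICAR alone lowered Got1 by 1.36-fold (-0.44 ± 0.07, adjusted p = 0.00705), a call that ended without AICAR replicate 1 (adjusted p = 0.0506, the highest over the alternatives, with 9.52e-07 the lowest).

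Got2 encodes the mitochondrial partner of Got1. Its bright probe set read 11.66 and 11.62 in vehicle, 11.76 and 11.79 after dexamethasone, 11.67 and 11.63 after AICAR and 11.63 and 11.64 after both. The dexamethasone arrays were the highest by a small margin and the other 3 groups overlapped. No comparison passed the test: dexamethasone differed from vehicle by 0.14 (95% interval -0.02 to 0.30, adjusted p = 0.214), and the combination by -0.00 (-0.16 to 0.15). The other probe set of Got2 was dim, with a mean of 3.38 over all arrays. It was called higher after both agents than in vehicle (0.50 ± 0.16, adjusted p = 0.043) and than after AICAR (0.53 ± 0.16, adjusted p = 0.03), in which it disagreed with the bright one.

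Agxt encodes alanine-glyoxylate aminotransferase, which removes glyoxylate, the precursor of oxalate. It read 9.90 and 9.90 in vehicle, 10.39 and 10.49 after dexamethasone, 10.22 and 10.18 after AICAR and 9.91 and 9.92 after both. Each agent alone gave values above vehicle, while the combined arrays lay next to the vehicle arrays. The rise was 1.45-fold after dexamethasone (0.54 ± 0.07, adjusted p = 0.00109) and 1.23-fold after AICAR (0.30 ± 0.07, adjusted p = 0.0305), and the combination differed from vehicle by 0.01 (95% interval -0.15 to 0.18). The AICAR call ended without any 1 of the vehicle, AICAR or combined arrays and in a fit of the 4 arrays compared (adjusted p from 0.0566 to 0.15; from 1.03e-04 to 0.15 over all alternatives). The combination was lower than dexamethasone alone (-0.53 ± 0.07, adjusted p = 0.00118). It was also lower than AICAR alone (-0.29 ± 0.07, adjusted p = 0.0167), but not without any 1 of the 4 arrays compared (adjusted p from 0.0524 to 0.0901; from 5.88e-05 to 0.0901 over all alternatives).

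The genes of direct ammonia release followed. Sds encodes serine dehydratase, which turns serine into pyruvate and ammonia. It read 7.34 and 7.41 in vehicle, 9.52 and 9.55 after dexamethasone, 6.10 and 6.15 after AICAR and 6.91 and 6.83 after both. No group overlapped another, and the combined group fell between AICAR and vehicle. Dexamethasone raised Sds 4.46-fold (2.16 ± 0.07, adjusted p = 5.57e-07). This was the largest rise among the 10 genes and ranked 71 by size among all 31042 probe sets. AICAR lowered it 2.39-fold (-1.26 ± 0.07, adjusted p = 4.2e-05), and after both agents it was 1.42-fold below vehicle (-0.51 ± 0.07, adjusted p = 9.92e-04). Against dexamethasone alone the combination was 6.34-fold lower (-2.66 ± 0.07, adjusted p = 1.99e-07), which ranked 42 by size among all probe sets in that comparison.

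Hal encodes histidine ammonia-lyase, the first step of histidine breakdown. Values were 9.96 and 10.05 in vehicle, 10.02 and 10.03 after dexamethasone, 9.53 and 9.53 after AICAR and 8.91 and 8.84 after both. The dexamethasone arrays lay between the vehicle arrays, AICAR was lower, and the combination lowest. Dexamethasone alone differed from vehicle by 0.02 (95% interval -0.14 to 0.18, adjusted p = 0.891). AICAR alone lowered Hal 1.39-fold (-0.47 ± 0.07, adjusted p = 0.00477) and the combination lowered it 2.19-fold (-1.13 ± 0.07, adjusted p = 9.49e-06). In the presence of AICAR, dexamethasone lowered Hal by a further 1.58-fold (-0.66 ± 0.07, adjusted p = 1.96e-04).

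Gls2 encodes the liver glutaminase, which splits glutamine into glutamate and ammonia. It read 10.55 and 10.54 in vehicle, 10.83 and 10.85 after dexamethasone, 9.81 and 9.85 after AICAR and 9.53 and 9.43 after both. The groups were separate, with dexamethasone highest and the combination lowest. The fall was 1.64-fold after AICAR (-0.72 ± 0.07, adjusted p = 6.56e-04) and 2.09-fold after both (-1.06 ± 0.07, adjusted p = 1.33e-05), and the combination was 2.55-fold below dexamethasone alone (-1.35 ± 0.07, adjusted p = 6.15e-06). The rise after dexamethasone alone was small (1.22-fold, 0.29 ± 0.07, adjusted p = 0.0229). Its call ended without any 1 of the vehicle or dexamethasone arrays and in a fit of those 4 arrays only (adjusted p from 0.0652 to 0.0917; from 6.23e-05 to 0.0917 over all alternatives).

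Glud1 encodes glutamate dehydrogenase, which releases ammonia from glutamate in mitochondria. It was bright, at 12.04 and 12.05 in vehicle, 12.76 and 12.82 after dexamethasone, 12.31 and 12.28 after AICAR and 12.83 and 12.88 after both. The dexamethasone and combined arrays were the highest and did not overlap, and AICAR lay between them and vehicle. Dexamethasone raised it 1.68-fold (0.74 ± 0.07, adjusted p = 1.50e-04) and both agents 1.75-fold (0.81 ± 0.07, adjusted p = 5.77e-05). AICAR alone differed by 0.25 (95% interval 0.09 to 0.41, adjusted p = 0.0525) and did not pass. It passed under 4 of 15 alternatives (adjusted p from 1.40e-05 to 0.209). The other probe set of Glud1, with a mean of 11.95, gave 0.84 ± 0.07 for dexamethasone, 0.23 ± 0.07 for AICAR and 0.87 ± 0.07 for both, and had the same calls.

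Prodh encodes proline dehydrogenase, which starts proline oxidation in mitochondria. It read 9.98 and 10.02 in vehicle, 11.05 and 11.14 after dexamethasone, 9.77 and 9.85 after AICAR and 10.17 and 10.08 after both. The dexamethasone arrays stood apart above all others, and the combined arrays lay just above vehicle. Dexamethasone raised Prodh 2.14-fold (1.10 ± 0.08, adjusted p = 2.87e-05), while the combination differed from vehicle by 0.12 (95% interval -0.05 to 0.30, adjusted p = 0.293) and was 1.96-fold below dexamethasone alone (-0.97 ± 0.08, adjusted p = 6.26e-05). AICAR alone differed by -0.19 (-0.37 to -0.01, adjusted p = 0.149). The other Prodh probe set was dim, with a mean of 4.10, and passed in no comparison.

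Shmt1 encodes the cytosolic serine hydroxymethyltransferase, which exchanges serine and glycine and loads a carbon unit onto folate. It read 9.56 and 9.54 in vehicle, 9.74 and 9.81 after dexamethasone, 9.82 and 9.85 after AICAR and 10.02 and 9.94 after both. All treated arrays were above vehicle and the combined arrays were highest. Both agents together raised Shmt1 1.35-fold (0.43 ± 0.07, adjusted p = 0.00221). Dexamethasone alone gave 0.23 (95% interval 0.06 to 0.39, adjusted p = 0.0631) and did not pass, although it did under 4 of 15 alternatives (adjusted p from 0.00157 to 0.203). AICAR alone gave 0.29 ± 0.07 (adjusted p = 0.0348), and this call ended without any 1 of the vehicle, AICAR or combined arrays, in a fit of the 4 arrays compared and with the replicate number as a block (adjusted p from 0.0519 to 0.132; from 2.36e-04 to 0.132 over all alternatives).

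**Figure D2:**
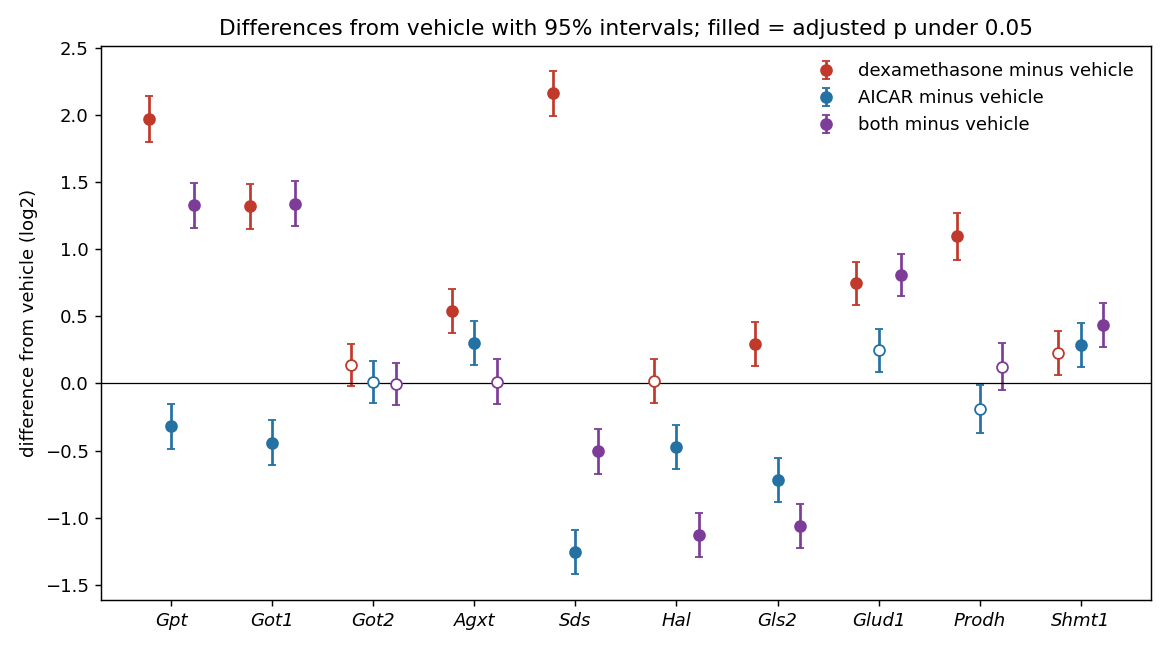
Difference from vehicle (log2, vertical axis) of each gene after dexamethasone, AICAR or both, with 95% intervals from limma; filled points passed the test. Gpt, Got1 and Glud1 stayed above vehicle after both agents (1.33, 1.34 and 0.81), whereas Sds, Hal and Gls2 were below it (-0.51, -1.13 and -1.06).

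Sequence before the transcript start was taken from RefSeq (build GRCr8) for Agxt, whose rise after either agent alone was not seen after both, and for Glud1, which rose with dexamethasone alone and with both. The table held windows for 6 of the 10 genes (Got1, Got2, Gls2, Glud1, Agxt and Shmt1), 8 in all; Sds, Gpt, Prodh and Hal were not matched. Searched on both strands in the 250 bases before each start were AGAACA, complement TGTTCT, the core of glucocorticoid response elements, GTAAACA, complement TGTTTAC, a forkhead motif, and TGACG, complement CGTCA, the core of cyclic AMP response elements. In capitals is the only match in the windows shown, a TGTTCT that begins 80 bases before the upstream of 2 Agxt starts, in the window chr9:101122543-101122792 (plus strand), and overlaps no other match. The window of the other Agxt start, chr9:101127008-101127257, held no match to any of the motifs. The Glud1 window is chr16:9646319-9646568 (plus strand).
Agxt: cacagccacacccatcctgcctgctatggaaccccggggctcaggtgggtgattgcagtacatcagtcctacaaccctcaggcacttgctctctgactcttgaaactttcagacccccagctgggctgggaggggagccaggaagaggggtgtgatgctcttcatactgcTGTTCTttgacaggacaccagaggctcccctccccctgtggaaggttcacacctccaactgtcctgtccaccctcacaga
Glud1: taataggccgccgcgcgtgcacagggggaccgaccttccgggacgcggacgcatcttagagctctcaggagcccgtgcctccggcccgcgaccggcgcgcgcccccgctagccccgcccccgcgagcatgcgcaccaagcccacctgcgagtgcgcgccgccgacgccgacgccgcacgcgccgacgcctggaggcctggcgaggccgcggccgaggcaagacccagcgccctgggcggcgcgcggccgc
The hexamer AGAACA or its complement was present in 1 of the 8 windows of these genes and in 17.5% of 33469 windows of the same length in the table. The pentamer TGACG was present in 1 of 8, a Gls2 window with 2 matches, and in 18.2% of all. The forkhead motif was in none of the 8 and in 3.21% of all. The Agxt window had 58% G and C bases and the Glud1 window 78.8%. A match is a description of these letters and not of binding.

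The next comparison asked how far the dexamethasone effect depended on AICAR. With AICAR present, dexamethasone still raised Got1 3.43-fold (1.78 ± 0.07), Gpt 3.12-fold (1.64 ± 0.07), Sds 1.68-fold (0.75 ± 0.07), Glud1 1.47-fold (0.56 ± 0.07) and Prodh 1.24-fold (0.31 ± 0.08, adjusted p = 0.0142). In the same comparison it lowered Hal, Gls2 and Agxt. The Prodh call ended without AICAR replicate 1 (adjusted p = 0.0895) or combined replicate 1 (adjusted p = 0.1), under cyclic loess (adjusted p = 0.0554) and when both probe sets were averaged (0.13, adjusted p = 0.23), against a lowest value of 3.30e-05. The Gls2 call (-0.35 ± 0.07, adjusted p = 0.00639) ended without combined replicate 2 (adjusted p = 0.0567, the highest over the alternatives, with 4.46e-06 the lowest).

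The difference between these dexamethasone effects was tested as an interaction, which is 0 when the effects of the agents add up on the log2 scale. It passed for 6 of the 10 genes, 5 lower and 1 higher, against 15.6% of all probe sets (8.63% higher and 7.02% lower). It also passed for all 8 genes known to respond to glucocorticoids, 6 lower and 2 higher. In a fit of only the 15521 probe sets above the median mean, 5681 passed, with 7 of the 10 genes. Of all probe sets called, 55.1% were higher as deposited and 44.0% when arrays were centred on their brighter probe sets. The interaction was -1.41 ± 0.10 for Sds (adjusted p = 7.00e-05), so the combined level of 6.87 lay below the 8.28 that additive effects would give. It was -0.83 ± 0.10 for Agxt (adjusted p = 0.00118), -0.78 ± 0.11 for Prodh (adjusted p = 0.00207), -0.68 ± 0.10 for Hal (adjusted p = 0.00303) and -0.64 ± 0.10 for Gls2 (adjusted p = 0.00406). Those 5 calls held under all 14 alternatives. Got1 was the exception in direction, with 0.46 ± 0.10 (adjusted p = 0.0196). The Got1 call was lost under cyclic loess (0.35, adjusted p = 0.0575) and without vehicle replicate 2, either AICAR array or either combined array (adjusted p from 0.0537 to 0.0753; from 2.87e-05 to 0.0753 over all alternatives).

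For the other 4 genes the interaction did not pass. It was -0.32 for Gpt (95% interval -0.56 to -0.09, adjusted p = 0.0719), and Gpt passed under 4 of 14 alternatives (adjusted p from 0.00126 to 0.171). It was -0.19 for Glud1 (-0.41 to 0.04), -0.15 for Got2 (-0.37 to 0.07) and -0.08 for Shmt1 (-0.31 to 0.15).

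**Figure D3:**
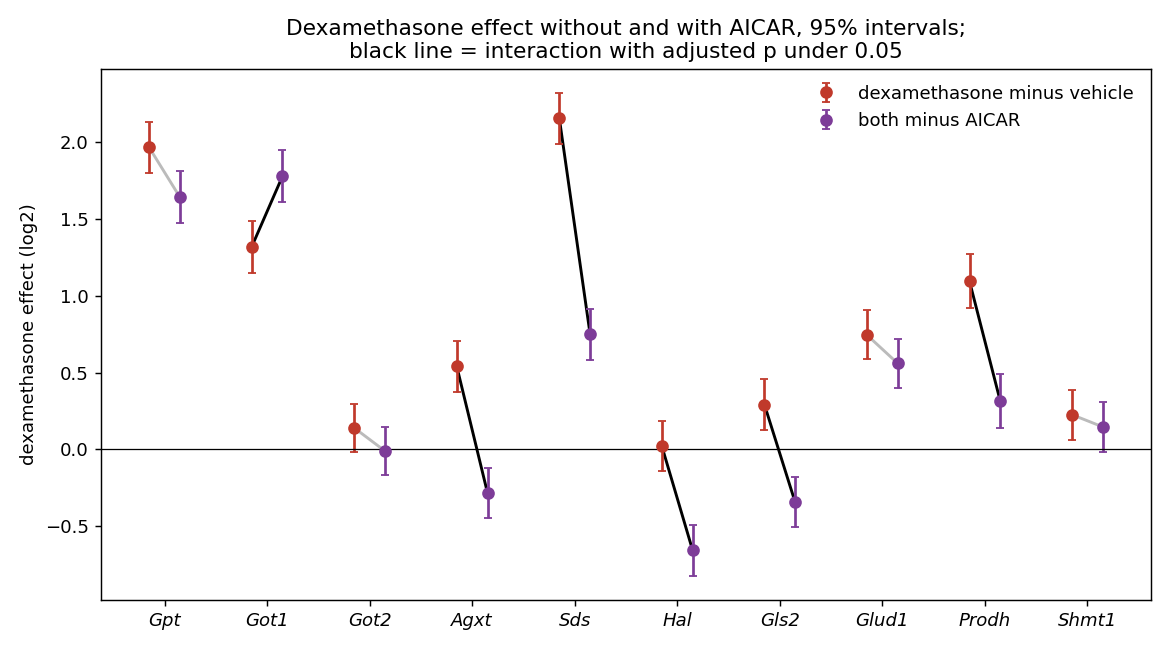
Dexamethasone effect (log2, vertical axis) of each gene without AICAR (red) and with AICAR (purple), with 95% intervals from limma; a black line joins effects whose difference passed the interaction test. The Sds effect went from 2.16 to 0.75, those of Agxt and Gls2 changed sign, and the Got1 effect went from 1.32 to 1.78. The calls of the Agxt effect with AICAR, of both Gls2 effects and of the Got1 interaction were each lost under some alternatives. The Agxt and Gls2 interactions were not.

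Read the other way, AICAR given with dexamethasone lowered Sds, Gls2, Hal, Prodh, Gpt and Agxt relative to dexamethasone alone, with differences of -2.66, -1.35, -1.15, -0.97, -0.64 and -0.53 (log2). None of these 6 calls was lost under any of the 15 alternatives. Glud1 (0.06, 95% interval -0.10 to 0.22), Got1 and Shmt1 (0.21, 0.04 to 0.37, adjusted p = 0.0797) did not pass. For Agxt the same agent had the opposite sign without dexamethasone, 0.30 in place of -0.53. The call of this rise of 0.30 was lost under 7 of 15 alternatives.

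Likeness between profiles was measured as the Euclidean distance between values centred on each gene's mean over the 8 arrays, across 14217 genes. Distances grow with the size of a gene's changes, so they cannot be compared between genes as they stand. The median distance to all genes was 3.66 for Sds, 2.72 for Gpt, 2.30 for Got1, 1.62 for Gls2 and 1.51 for Prodh. It was 1.40 for Hal, 1.06 for Glud1, 0.80 for Agxt, 0.62 for Shmt1 and 0.49 for Got2. Mutual nearest members were Gls2 and Hal (distance 0.53), Gpt and Got1 (0.77) and Got2 and Shmt1 (0.48). Among all genes Hal ranked 11 from Gls2 and Gls2 45 from Hal, and Got1 12 from Gpt and Gpt 16 from Got1. Shmt1 ranked only 7031 from Got2, and Got2 3395 from Shmt1. Outside the members, the 3 genes nearest to Gls2 were C8h11orf54, Bphl and Uroc1, the last of which encodes urocanase, the step after Hal in histidine breakdown (0.40). Those nearest to Gpt were Omd, Pfkfb1 and Rasgef1b (0.36 to 0.44), and to Got1 Slc25a32, Rasgef1b and Ifrd1 (0.47 to 0.57). Those nearest to Prodh were Znfx1, Gnmt and Foxa1 (0.18 to 0.23), and to Agxt H6pd, Uvrag and Mapre2 (0.09 to 0.20). Those nearest to Sds were Ly75, Pxmp4 and Oas1b (1.17 to 1.25, median 3.66). The remaining triplets were Thumpd1, Crybg2 and Fmo1 for Hal, Osbpl3, Nr1i3 and Ppcs for Glud1, Wdr83os, Ssr3 and Idh3a for Shmt1, and Hcn4, Actl6b and Scp2 for Got2. The arrays of a group share their treatment, so these distances rest on 4 conditions.

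Enzymes related to the members by sequence or by reaction gave further values. Gpt2, the mitochondrial alanine aminotransferase, rose after dexamethasone (0.64 ± 0.08, adjusted p = 9.89e-04) and after both agents (0.73 ± 0.08, adjusted p = 2.74e-04), with an interaction of 0.27 (adjusted p = 0.17). Its other probe set gave 0.80 and 1.02. Agxt2, the mitochondrial aminotransferase of glyoxylate, changed by -0.76 ± 0.07 after both agents and by 0.05 after AICAR (adjusted p = 0.674), with an interaction of -0.51 ± 0.10 (adjusted p = 0.00992). Its fall after dexamethasone alone (-0.30 ± 0.07, adjusted p = 0.0187) ended in a fit of those 4 arrays and without either vehicle array or dexamethasone replicate 1 (adjusted p from 0.0652 to 0.0813; lowest over the alternatives 3.15e-05).

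Shmt2, the mitochondrial serine hydroxymethyltransferase, rose after AICAR (0.50 ± 0.08, adjusted p = 0.00464) and fell from AICAR to both (-0.86 ± 0.08, adjusted p = 6.08e-05). Dexamethasone alone gave -0.35 ± 0.08 (adjusted p = 0.0135), a call that ended without vehicle replicate 1 (adjusted p = 0.0796, the highest over the alternatives, with 2.25e-05 the lowest) and without dexamethasone replicate 2. Both agents gave -0.36 ± 0.08 against vehicle (adjusted p = 0.0083), which did not hold without vehicle replicate 1 or combined replicate 2 (adjusted p from 1.13e-05 to 0.063 over the alternatives). Sdsl, a homologue of Sds, gave 0.50 ± 0.10 after dexamethasone (adjusted p = 0.0106), without a call when vehicle replicate 1 or dexamethasone replicate 1 was left out (adjusted p = 0.0645 in each case, the highest over the alternatives, with 3.91e-04 the lowest). AICAR alone gave -0.03 for Sdsl (adjusted p = 0.886), and the combination 0.31 against vehicle (adjusted p = 0.0601). A further Sdsl probe set of like brightness was called higher after dexamethasone (0.66 ± 0.09, adjusted p = 0.00111) and after both (0.34 ± 0.09, adjusted p = 0.0202), and lower from dexamethasone to both (-0.32 ± 0.09, adjusted p = 0.0359). The 2 sets thus differed in their calls for the combination.

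Prodh2, which oxidises hydroxyproline, gave -0.20 after dexamethasone (adjusted p = 0.0976) and 0.04 after AICAR (adjusted p = 0.807). Its difference after both agents (-0.26 ± 0.07, adjusted p = 0.0325) lost its call under 7 of 15 alternatives, among them the fits without either vehicle, AICAR or combined array (adjusted p from 6.66e-04 to 0.189). For Glul, glutamine synthetase, 3 probe sets disagreed. The brightest gave 0.13 after AICAR (adjusted p = 0.32), while the others rose by 0.50 ± 0.07 (adjusted p = 0.00321) and 0.95 ± 0.08 (adjusted p = 2.45e-04).

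Of 97 other genes on 7 lists of the same pathways, 83 were measured. After dexamethasone 20 of them rose and 17 fell, after AICAR 8 rose and 9 fell, and after both 20 rose and 26 fell against vehicle. Against dexamethasone alone the combination gave 11 rises and 25 falls, and the interaction 7 and 23. The medians were 0.02, 0.03, 0.01, -0.10 and -0.15. Over all probe sets the shares called higher and lower were 8.67% and 9.77% for dexamethasone and 5.45% and 7.47% for AICAR. They were 13.3% and 13.6% for both against vehicle, 10.2% and 9.91% against dexamethasone, and 8.63% and 7.02% for the interaction. These shares are low for genes represented by their brightest probe set. Of 15521 probe sets above the median mean, 6019 passed for dexamethasone, 5072 for AICAR and 8042 for both against vehicle. There 6790 passed against dexamethasone and 5681 for the interaction. Whether the lists differ from genes of like brightness was not tested. Leaving out each array in turn gave 15 to 19 rises and 10 to 16 falls for dexamethasone, 5 to 9 and 5 to 9 for AICAR, and 11 to 20 and 20 to 27 for both against vehicle. It gave 3 to 11 rises and 22 to 25 falls against dexamethasone, and 0 to 7 and 18 to 22 for the interaction. The fewest falls for dexamethasone (10) came without vehicle replicate 1 or dexamethasone replicate 1, the fewest rises against dexamethasone (3) without combined replicate 1, and no interaction rise without AICAR replicate 1 or combined replicate 1.

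In serine, glycine and threonine metabolism, dexamethasone raised 7 of 18 genes and lowered 4; the falls numbered 1 without vehicle replicate 1 and 2 without vehicle replicate 2 or dexamethasone replicate 1. Among the rises were Phgdh, the first enzyme of serine synthesis (0.93 ± 0.10), Dao, the D-amino acid oxidase (0.80 ± 0.07), and Glyctk, glycerate kinase (0.73 ± 0.08). Adding AICAR to dexamethasone lowered 7 and raised 2, among them Hao1, which makes glyoxylate (-0.73 ± 0.07), Gldc of the glycine cleavage system (-0.70 ± 0.08) and Glyctk (-0.69 ± 0.08). Dao had the lowest interaction of this list (-1.29 ± 0.10).

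The list for alanine, aspartate, glutamate and glutamine gave 4 rises and 3 falls of 15 after dexamethasone, led by the aspartoacylase gene Aspa (1.09 ± 0.12) and the asparaginase gene Aspg (-0.83 ± 0.08). Aspg fell after AICAR too (-0.86 ± 0.08) and after both (-2.44 ± 0.08, adjusted p = 2.44e-07). In the list of malate-aspartate and pyruvate steps, 5 of 14 rose and 2 fell after dexamethasone, with a count of 1 fall whichever array was left out. The malate dehydrogenase genes Mdh1 (0.91 ± 0.07) and Mdh2 (0.52 ± 0.08) and the mitochondrial glutamate carrier gene Slc25a22 (0.88 ± 0.07) rose, and they were also above vehicle after both agents (0.76, 0.42 and 1.08). Pck1, phosphoenolpyruvate carboxykinase, rose after dexamethasone (0.45 ± 0.07) and fell after both (-0.68 ± 0.07), with an interaction of -1.27 ± 0.10 (adjusted p = 9.75e-05).

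Of 10 genes of proline, hydroxyproline and ornithine metabolism, 1 rose and 2 fell after dexamethasone. The rise, of Hoga1 (0.24, adjusted p = 0.0422), lost its call whichever of the 8 arrays was left out (adjusted p from 1.63e-04 to 0.162 over all alternatives). Oat, ornithine aminotransferase, fell after dexamethasone (-0.65 ± 0.07) and after both agents (-2.08 ± 0.07), and the latter lay below the former (-1.43 ± 0.07, adjusted p = 3.87e-06). Aldh4a1, which follows Prodh in proline oxidation, fell after dexamethasone (-0.46 ± 0.07) and after both (-0.75 ± 0.07). Of 4 histidine genes, Ftcd, which passes the formimino group to folate, rose after dexamethasone (0.71 ± 0.07) and Uroc1 fell after AICAR (-0.76 ± 0.07). Hdc, with a lowest group mean of 4.90, rose after AICAR (0.69 ± 0.12), a call lost under 1 of 15 alternatives. From dexamethasone to both, Hdc rose (0.75 ± 0.12) while Uroc1 (-0.98 ± 0.07) and Ftcd (-0.81 ± 0.07) fell. Folate genes fell in 4 of 10 cases after dexamethasone with no rise, but in 2 to 4 when 1 array was left out. Slc46a1 lost its call without any 1 of the vehicle or dexamethasone arrays (adjusted p from 4.23e-04 to 0.0783 over all alternatives), and Aldh1l2 without either vehicle array or dexamethasone replicate 1 (from 5.34e-05 to 0.11). In the same list the formyltetrahydrofolate dehydrogenase gene Aldh1l1 was lowered by both agents (-1.08 ± 0.08). Of 12 genes for the uptake of these amino acids, 2 rose and 2 fell after dexamethasone. The neutral amino acid carrier gene Slc38a2 rose by 1.49 ± 0.07 and the glutamine carrier gene Slc38a3 changed by -0.60 ± 0.08. The other fall, of Slc1a4 (-0.56 ± 0.16, adjusted p = 0.0407, lowest group mean 4.99), lost its call under 6 of 15 alternatives.

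**Figure D4:**
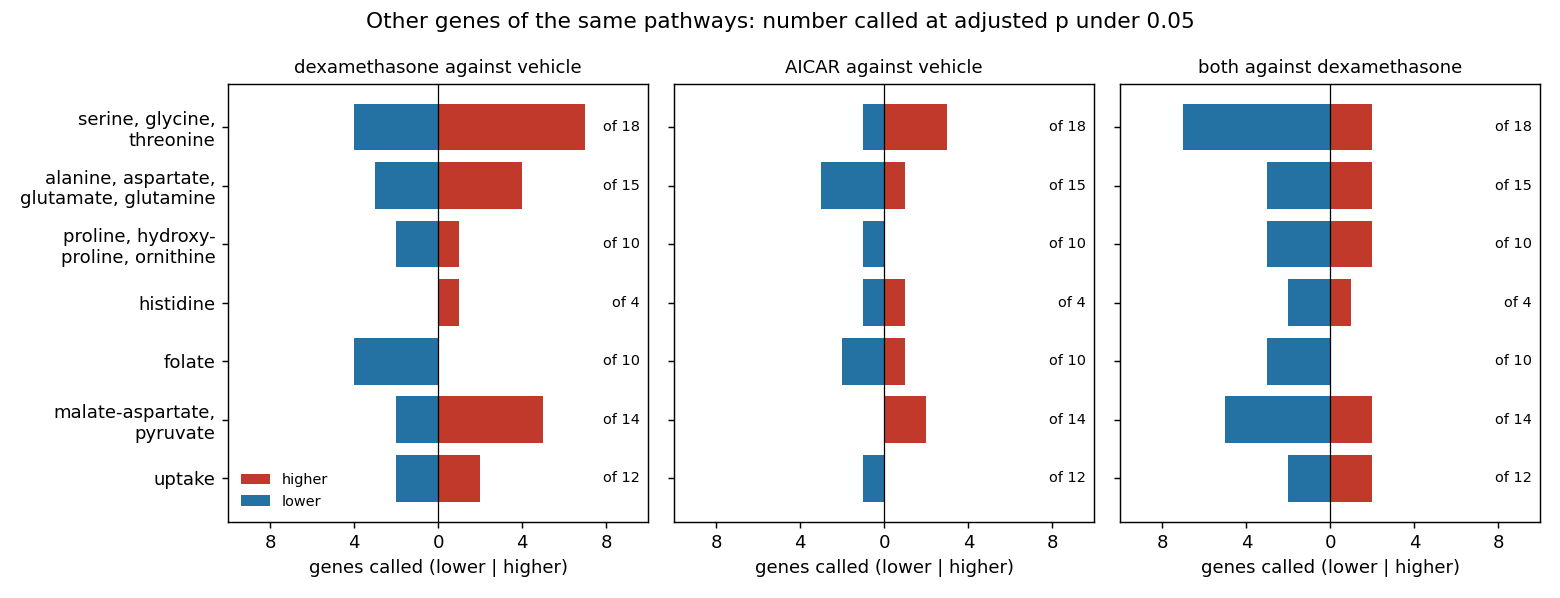
Number of genes called lower (blue, to the left) and higher (red, to the right) in 7 pathway lists that exclude the 10 members, in 3 comparisons, with the number measured at the right of each bar. Dexamethasone gave 20 rises and 17 falls over the 83 genes (8.67% and 9.77% of all probe sets). AICAR gave 8 and 9 (6.22% and 8.96%), and adding AICAR to dexamethasone gave 11 and 25 (14.0% and 11.3%).

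Zonation markers that are no members were set beside the genes. Of 9 periportal genes 6 rose and 2 fell after dexamethasone, none rose and 3 fell after AICAR, and 1 rose and 6 fell from dexamethasone to both. The shares of all probe sets called higher and lower were 8.67% and 9.77%, 5.45% and 7.47%, and 10.2% and 9.91% in these comparisons. Without 1 array the dexamethasone rises were 4 to 5. Of the AICAR falls, that of Cyp2f4 (-0.31, adjusted p = 0.0375) lost its call under 10 of 15 alternatives, among them the fits without any 1 of the vehicle, AICAR or combined arrays (adjusted p from 6.17e-04 to 0.161 over all). The urea cycle genes Ass1 (0.90 ± 0.07) and Arg1 (0.48 ± 0.07) were among the rises with dexamethasone. Of 11 pericentral genes 2 rose and 3 fell after dexamethasone, 2 rose and 1 fell after AICAR, and 3 rose and 5 fell from dexamethasone to both.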

How the data were processed

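The deposited table holds log2 expression values, 1 per probe set and array, which the authors normalised by RMA (affy); this is per the submitters' processing notes. Their versions and the log base are not given in the sources used here, and log2 was read from the range of the values. Array medians lay between 5.22 and 5.27. RMA compresses changes of dim probe sets, and the 2 arrays of a group limit the precision. Of 31099 probe sets 57 array controls were left out. Symbols came from the platform annotation (14217 genes with a probe set of 1 symbol); a gene was represented by its brightest probe set. Differences were fitted with limma 3.58.1 in R 4.3.3 over all 8 arrays, 1 coefficient per group, and moderated by eBayes (residual degrees of freedom 4, prior 4.58), with p-values adjusted by Benjamini-Hochberg over 31042 probe sets. The code was tested on simulated data. With 2 arrays a group no exact test of a single gene was made. Named genes were the members, enzymes related to them by sequence or reaction, and the 3 nearest profiles of each member. Up to 4 called genes of smallest p from each list and comparison were added, of which those in the text are a part. Members and lists were chosen with earlier results of these data known.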

Additional observations from a re-analysis of the deposited data

Results flagged for a closer look

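For 6 of the 10 genes the dexamethasone effect differed between livers with and without AICAR by the interaction test. On the log2 scale the difference was -1.41 for Sds, -0.83 for Agxt, -0.78 for Prodh, -0.68 for Hal, -0.64 for Gls2 and 0.46 for Got1. The Got1 call did not hold under every alternative, cyclic loess (0.35) among those that ended it. Of all probe sets 15.6% passed this test. Groups of 2 arrays are too small to look for an array that stands apart.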

How the results depend on the processing

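Of 41 called differences of the 10 genes, 32 kept their call under every alternative and 9 lost it under at least 1; none reversed. Of 19 that were not called, 10 were called under at least 1. In a fit of only the arrays compared, 4 genes in place of 7, and 2345 probe sets in place of 4011, were called for AICAR; a trended and robust prior gave 6048 there. Leaving out each array in turn gave 6 to 7 genes and 3738 to 5303 probe sets for dexamethasone, 3 to 7 and 1447 to 3819 for AICAR, 7 and 5677 to 8386 for the combination against vehicle, 6 to 8 and 6510 to 9596 against AICAR, 6 and 3698 to 5985 against dexamethasone, and 5 to 6 and 2910 to 3991 for the interaction. The lone array of a reduced group was assumed to vary like the others. Deviations of same-numbered arrays correlated between -0.04 and 0.16, and not every array correlated best with its own number. With 1 deviation per group and probe set, this cannot show whether the replicate numbers paired the arrays. With the replicate block 6 genes in place of 7 were called for AICAR, and 7, 7, 8, 6 and 6, as without it, in the other comparisons. The filter on dim probe sets kept all 10 genes. Alternatives for the pathway genes were added after the data were seen. Of 203 called results of those genes, 161 kept their call throughout.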
